A study of Caenorhabditis elegans with 2 samples.

Results

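The genes described here are 57 genes of DNA repair and of the DNA damage response in *Caenorhabditis elegans*, taken from a list of gene symbols. No measured value decided membership, but the list was chosen with earlier results of these data known. Of the 57, 56 were found by symbol among the 19973 protein-coding nuclear genes of Ensembl release 115 (WBcel235, the sequence of ce11). The exception was msh-4, a symbol that the RefSeq table gives to a pseudogene. Binding of the AT-hook protein ATTF-5 had been mapped by chromatin immunoprecipitation and sequencing (ChIP-seq) in strain OP724. This strain carries the allele unc-119(tm4063) and the integrated transgene wgIs724, in which attf-5 is fused to TY1, EGFP and 3xFLAG and which also holds unc-119(+). Whole animals of both sexes were collected as young adults at 66 hours, after hatchlings had been synchronised by bleaching and starvation, and anti-GFP antibody recovered the tagged protein. The samples formed 1 group, with 2 biological replicates numbered 1 and 3, and no other strain, stage or untagged group is compared here. Whole animals were used, so binding cannot be placed in any tissue, and the sources used here do not give the regulatory sequence that drives the tagged gene. Read depth was not given either, and no test between conditions was possible.

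Cells repair each kind of DNA damage with a separate set of proteins. Strand breaks are resected and copied from a sister or homologous chromosome by the RAD-51 recombinase, or joined end to end. Damaged bases and bulky adducts are cut out, copying errors are removed by mismatch repair, and checkpoint kinases halt the cell cycle or trigger death of germ cells through the p53 protein CEP-1. In the adult worm the germ line is the main dividing tissue, and meiotic recombination there uses many of the same proteins. AT-hook proteins in general contact the minor groove of A and T rich DNA.

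The authors deposited 4 lists of enriched regions, each with a summit and a signal value in their own scale. The replicate 1 and pooled lists held 30000 regions each and the replicate 3 list 28299, and regions of these lists can be background. The thresholded list held 3331 regions kept for reproducibility between the replicates, with signals from 89.6 to 2844, and its signals are those of the pooled list. A gene was called bound when a summit of the thresholded list lay in its promoter window, from 1000 bp upstream to 200 bp downstream of the annotated 5′ end. In *C. elegans* many annotated 5′ ends are sites of trans-splicing, so transcription can start further upstream.

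A promoter peak was present at 21 of the 56 repair genes (37.5%), against 12.3% of all protein-coding genes, the share at which 6.90 genes of 56 would be bound. The bound genes were spread unevenly over the functions. Checkpoint signalling had 6 bound genes of 11, end resection 3 of 4, end joining 3 of 4 and translesion synthesis 2 of 2. The SMC genes of the SMC-5/6 complex had 2 of 2, and strand exchange had 2 of 6. Nucleotide excision repair and base excision repair had 1 of 6 each, and crosslink repair had 1 of 2. No peak met the rule at the 4 mismatch repair genes, the 4 helicase genes, the 3 genes of structure-specific nucleases or the 2 meiotic genes. These groups hold only the listed genes and are small, and differences between them were not tested.

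**Figure D1:**
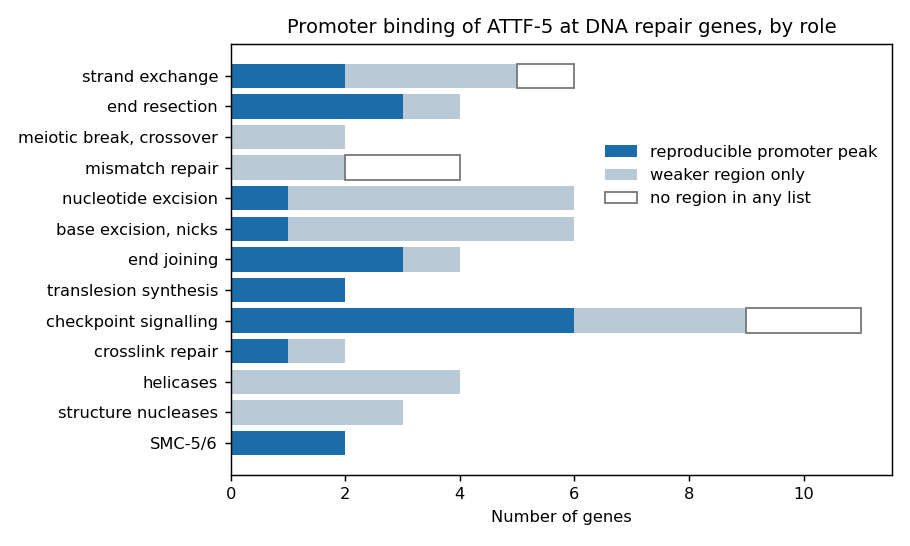
Number of repair genes (x axis) in each role (y axis), split into genes with a reproducible promoter peak, genes with only a weaker region in the pooled or a replicate list, and genes with no region in any list. Checkpoint signalling holds 6 of the 21 bound genes, while mismatch repair, helicases, structure-specific nucleases and meiotic genes hold none.

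The sequences below are the 101 bp centred on the summit at 6 bound genes, read on the strand of the gene from the RefSeq copy of WBcel235 (ce11). They are shown because the summits had fewer A and T bases than the sequence around them and often held the letters GCGC, which stand in capitals. The strongest of them is brc-1 and the weakest is mre-11, which is also the weakest bound gene. Those between are not in order of signal. The summit is base 51 of each.
brc-1, chrIII:3863090-3863190, minus strand: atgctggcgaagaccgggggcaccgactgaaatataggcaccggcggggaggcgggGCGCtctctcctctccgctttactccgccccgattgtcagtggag
rad-51, chrIV:10284644-10284744, minus strand: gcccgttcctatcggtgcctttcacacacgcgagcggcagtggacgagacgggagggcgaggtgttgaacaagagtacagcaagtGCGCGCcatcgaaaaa
cku-80, chrIII:4419475-4419575, plus strand: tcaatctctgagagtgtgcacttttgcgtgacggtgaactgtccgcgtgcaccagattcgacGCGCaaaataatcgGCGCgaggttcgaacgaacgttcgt
smc-5, chrII:5061932-5062032, plus strand: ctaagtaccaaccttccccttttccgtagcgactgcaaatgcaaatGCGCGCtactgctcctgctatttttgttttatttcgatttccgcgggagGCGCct
lig-1, chrV:10813830-10813930, plus strand: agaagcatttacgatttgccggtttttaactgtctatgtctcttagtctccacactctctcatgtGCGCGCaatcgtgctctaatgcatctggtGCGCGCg
mre-11, chrV:10736923-10737023, minus strand: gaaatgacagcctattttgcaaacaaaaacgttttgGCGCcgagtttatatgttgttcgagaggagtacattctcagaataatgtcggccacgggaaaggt

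Among the checkpoint genes, hsr-9 (WBGene00002027), which encodes the worm relative of the break-signalling protein 53BP1, stood far above every other repair gene. Its signal was 1323 in the thresholded list, rank 9 of 3331, with 671 in replicate 1 and 659 in replicate 3. The next repair gene had 401. The hsr-9 summit lay 161 bp upstream of its 5′ end and also 284 bp upstream of rps-19, a ribosomal protein gene transcribed in the other direction. Of the upstream kinases, atm-1 had a weak peak with a signal of 103 (58.9 in replicate 1 and 45.2 in replicate 3), and its summit was nearer to F56C11.3 on the opposite strand. The gene of the other kinase, atl-1, was not bound. Its strongest pooled region had 41.9, at 53 bp upstream of its 5′ end, and its strongest replicate regions had 19 in replicate 1 and 24.8 in replicate 3. A weaker pooled region of 28.5 lay farther upstream.

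The effector kinase gene chk-1 was bound in its own promoter, with a signal of 196 (113 in replicate 1 and 83.9 in replicate 3) at 246 bp upstream. The gene of chk-2, which in the worm acts in meiotic pairing and break formation, had a single region of 18 in replicate 1 alone. The 9-1-1 clamp is a ring of 3 proteins loaded at damaged DNA, and the genes of 2 of them were bound. They were hpr-9 (178, with 95.5 in replicate 1 and 85.8 in replicate 3) and mrt-2 (101, with 65.2 in replicate 1 and 34.5 in replicate 3). The gene of the remaining subunit, hus-1, had no region in any of the 4 lists. The clamp loader gene hpr-17 was bound at 125, with 64.6 in replicate 1 and 64.7 in replicate 3. The p53 gene cep-1 was not bound and had its best region, 34.5 in the pooled list, 713 bp upstream, and clk-2, the gene of the TEL2 protein that stabilises these kinases, had none.

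Of the genes that resect and copy broken ends, brc-1 (WBGene00000264), the BRCA1 gene, was the most strongly bound, with a signal of 394 at chrIII:3862973-3863263. Replicate 1 gave 206 and replicate 3 gave 186 there, and no other protein-coding gene had that summit in its window. The gene of its partner, brd-1, had only a region of 22.2 in the pooled list and none in either replicate. The recombinase gene rad-51 was bound 450 bp upstream with a signal of 222 (108 in replicate 1 and 114 in replicate 3). Of the other strand exchange genes among the 56, none was bound by this rule. The BRCA2 gene brc-2 had 22.7 in replicate 1 and 15.4 in replicate 3, and no region in the pooled list. The paralogue gene rfs-1 had no region in any list, and rip-1, the gene of its partner, had 15.1 in replicate 1 alone.

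End resection followed with exo-1 (225), com-1 (136) and mre-11 (92.0). The exonuclease gene exo-1 gave 112 in replicate 1 and 113 in replicate 3, with the summit 108 bp downstream of the annotated 5′ end, in an annotated untranslated part of the gene. The CtIP gene com-1 gave 54.5 in replicate 1 and 76.2 in replicate 3. The nuclease gene mre-11 had the lowest signal of the 21, with 47.2 in replicate 1 and 45.3 in replicate 3, and shared its summit with wdr-5.3 on the opposite strand. The gene of its complex partner, rad-50, lay outside the thresholded list with a pooled signal of 68.1, and had 44.4 in replicate 1 and 19.7 in replicate 3. Of the complex partners MRE-11 and RAD-50, the gene of the first was called and that of the other was not, though both had regions in each replicate.

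The end-joining genes showed the same uneven picture. The Ku subunit gene cku-80 was bound with a signal of 231 (131 in replicate 1 and 94.1 in replicate 3) and held another thresholded summit of 103 at 111 bp upstream. Its partner gene cku-70 had a pooled signal of 37.7 and, of the replicates, a region in replicate 1 alone (30.9). The ligase gene lig-4 was called at 202 (109 in replicate 1 and 93.0 in replicate 3), but its summit lay 620 bp upstream, farther than at any other bound repair gene. That summit was 2 bp from the 5′ end of cux-7 and in the window of C07H6.2, the gene just before lig-4. DNA polymerase theta, which joins ends at short matching stretches, is encoded by polq-1, and its gene was bound at 97.3 with 48.4 in both replicates, in a promoter shared with the kinetochore gene him-10.

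Both translesion polymerase genes were bound, at very different levels. The polymerase eta gene polh-1 had a signal of 401 (227 in replicate 1 and 174 in replicate 3), ranked 204, and shared its summit with the ribosomal protein gene rps-22, whose 5′ end was nearer. The gene rev-1 had 93.0 (40.4 in replicate 1 and 43.9 in replicate 3). The translesion polymerase genes polk-1 and rev-3, from the further list described below, were not bound. Both cohesin-like SMC genes that hold chromosomes during repair were bound at close signals, 230 for smc-5 (134 in replicate 1 and 92.9 in replicate 3) and 219 for smc-6 (99.8 in replicate 1 and 114 in replicate 3). The crosslink repair gene fcd-2, the FANCD2 gene, had 172 (64.9 in replicate 1 and 105 in replicate 3).

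Among the 6 listed genes of each branch of excision repair, a single one was bound. Genes of the further list described below are not in these counts. Of 6 nucleotide excision genes, csb-1 was bound. It encodes the Cockayne syndrome B protein that detects stalled RNA polymerase, and had a signal of 246 (134 in replicate 1 and 111 in replicate 3) at 414 bp upstream, but the summit was only 55 bp from F53H4.4 on the opposite strand. The genes of damage verification and incision, xpa-1 and xpf-1, had 82.2 in the pooled list each. In xpf-1 the replicates differed, with 25.6 in replicate 1 and 53.5 in replicate 3, while xpa-1 had 33.8 in replicate 1 and 45.2 in replicate 3. The gene ercc-1, which encodes the partner of XPF-1, had 50.5 in the pooled list. The damage sensor gene xpc-1 had 21.9 in replicate 1 alone, and the nuclease gene xpg-1 had at most 23.3. Of 6 base excision and nick repair genes, lig-1, the ligase that also joins replication fragments, was bound at 132 (65.4 in replicate 1 and 63.9 in replicate 3). The uracil glycosylase gene ung-1 had a pooled signal of 48.8 and 42.0 in replicate 1, with no region in replicate 3. The abasic site nuclease genes exo-3 and apn-1 had 47.9 and 23, and the poly(ADP-ribose) polymerase genes parp-1 and parp-2 had 14.9 and 34.6, each as the highest signal in any list.

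**Figure D2:**
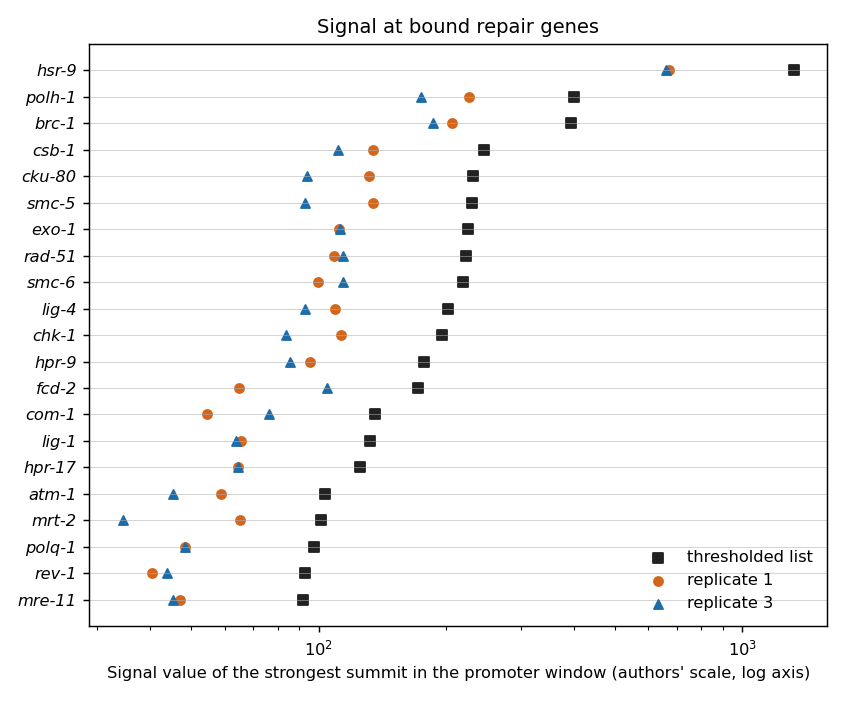
Signal value of the strongest summit in the promoter window (x axis, log scale, the authors' units) at each of the 21 bound repair genes (y axis), in the thresholded list and in both replicates. hsr-9 at 1323 stands apart from the other 20, which run from 92.0 to 401.

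The median signal of the bound repair genes was 196, against 164 over all 2461 bound genes, whose quartiles were 119 and 256. Of the 21, 13 lay above the median of the thresholded list (143) and 8 below it. Those 8 were com-1, lig-1, hpr-17, atm-1, mrt-2, polq-1, rev-1 and mre-11. The median over all bound genes, 164, lay above the list median as well.

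The 2 replicates gave close values at most bound repair genes. The ratio of replicate 1 to replicate 3 on the log2 scale was 0.06 at the median gene with an SD of 0.35 over the 21, against 0.10 with an SD of 0.45 over 2433 bound genes with a region in both. The ratio was highest at mrt-2 (0.92) and lowest at fcd-2 (−0.69), and no gene of the 21 departed by more than 2-fold from the ratio of the median bound gene. Replicate summits lay a median of 16 bp apart and at most 73 bp. The thresholded list had been selected for such reproducibility, so this is a description. These 21 were picked by that list, and 18 of them were among the 3331 strongest regions of replicate 1 and 19 among those of replicate 3.

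**Figure D3:**
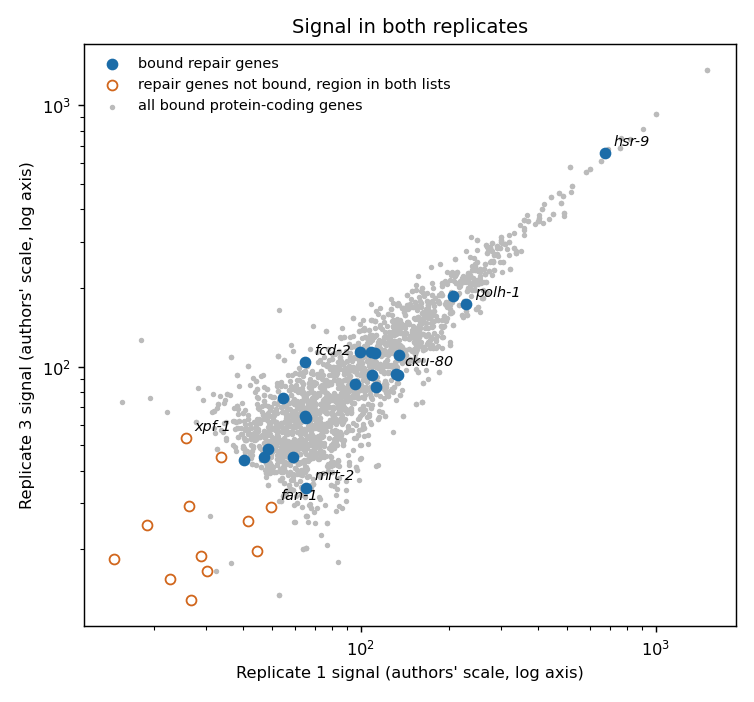
Signal in replicate 1 (x axis) against signal in replicate 3 (y axis), both on log scales in the authors' units, for bound repair genes, repair genes that were not bound but had a region in both replicate lists, and all bound protein-coding genes. The unbound repair genes reach at most 49.6 in replicate 1 (fan-1) and 53.5 in replicate 3 (xpf-1), within the low end of the bound genes.

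The line between bound and unbound was a matter of degree at some genes. Just inside it were rev-1 and mre-11 at 93.0 and 92.0. Just outside were the crosslink nuclease gene fan-1 with a pooled signal of 84.6 (49.6 in replicate 1 and 29.0 in replicate 3), then xpf-1, xpa-1, rad-50 and the gene of the meiotic break enzyme spo-11, at 64.2 (26.3 in replicate 1 and 29.3 in replicate 3). Ranked next was ercc-1, then the mismatch repair gene pms-2 at 49.2 (30.3 in replicate 1 and 16.5 in replicate 3) and ung-1. In the pooled list, which reaches into background, 43 of the 56 repair genes (76.8%) had a region in the window, against 38.6% of all genes. A region in both replicate lists was found for 33 of the 56 (58.9%), against 28.6% of all genes. Of the 35 unbound genes, 12 had a region in both replicates, 17 in a single replicate and 1 in the pooled list alone.

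For 5 repair genes no list held any region in the window. They were rfs-1, clk-2, hus-1 and both genes of the mismatch sensor MutS alpha, msh-2 and msh-6. The genes msh-2 and hus-1 lie head to head on chromosome I, with 5′ ends at 3697551 and 3698102. Their windows cover much of the same sequence and are not separate observations. At rfs-1 a thresholded summit of 361 lay 1216 bp downstream of the 5′ end, outside the window. The genes of the other mismatch factor, MutL, were pms-2, given above, and mlh-1, which had 21.8 in the pooled list and 19.1 in replicate 1 alone. The meiotic crossover gene msh-5 had 37.5 in the pooled list, with 14.6 in replicate 1 and 18.4 in replicate 3. Among the helicase genes the highest signals in any list were 41.0 at helq-1, 27.0 at him-6, the BLM gene, 26.6 at rtel-1 and 15.2 at wrn-1. Among the structure-specific nuclease genes they were 32.1 at slx-1, 26.7 at him-18 and 19.3 at mus-81. The worm gene of the MSH4 protein is him-14, which is not among the 56. It was not bound, with 42.1 in the pooled list against 18.6 and 22.7 in replicates 1 and 3.

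Many worm genes are transcribed in runs from the promoter of the first gene. Here a run was taken as neighbouring protein-coding genes on one strand with gaps of at most 500 bp, as annotated operons were not used. By that rule 26 of the 56 repair genes (46.4%) followed another gene in a run, against 20.2% of all genes. Of these 26, 5 (19.2%) had a peak in their own window, against 8.97% of all such genes. They were com-1, exo-1, lig-4, rev-1 and fcd-2. Of the other 30 repair genes, 16 (53.3%) had one, against 13.2% of all such genes.

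For genes later in a run, the window of the first gene of the run was read as well. It held a peak for 11 of the 26 (42.3%), against 26% of all genes later in a run, and 10 of the 11 had no peak of their own. The strongest of these was at tre-1, the first gene of the run of the nuclease gene xpg-1, with a signal of 555 at 37 bp upstream of tre-1. Next came npp-6, first in the run of slx-1 (347 at 399 bp upstream), cux-7, first in the run of clk-2 (202), tufm-2, first in the run of mus-81 (191), and H12C20.7, first in the run of pms-2 (189). The others headed the runs of exo-3 (163), him-18 (160), apn-1 (147), xpc-1 (127) and msh-6 (117). The cux-7 summit was the same as that of lig-4, which is transcribed in the other direction. With the own window and that of the first gene counted jointly, 31 of the 56 repair genes (55.4%) had a peak, against 16.7% of all genes. This way of counting was chosen after the values had been seen, and whether a peak at a first gene acts on a later one was not tested.

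Peaks were shared with a neighbour at 12 of the 21 bound repair genes (57.1%), against 51.9% of all bound genes. At all 12 a gene on the opposite strand shared the summit. This was not counted over all bound genes, so it cannot be called particular to repair genes. A peak without another gene in reach was found at brc-1, exo-1, rad-51, smc-5, chk-1, fcd-2, com-1, mrt-2 and rev-1. At 6 genes, polh-1, csb-1, lig-4, hpr-9, hpr-17 and atm-1, another gene had the nearer 5′ end. With each summit given to the nearest 5′ end alone, 15 of the 56 (26.8%) were bound, against 9.02% of all genes.

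Summits at 19 of the 21 (90.5%) lay upstream of the 5′ end, against 93.7% of all bound genes. Of the 19, 15 lay between 100 and 400 bp, a range not counted over all bound genes. The median offset was −177 bp with quartiles of −323 and −143 bp, against −238 bp with quartiles of −426 and −128 bp over all bound genes. The exceptions were exo-1 at 108 bp and mrt-2 at 135 bp downstream, both in an annotated untranslated part of the gene. Between genes lay 16 of the 21 summits. The summit of com-1 lay in an intron of its neighbour fbxb-87, that of rev-1 in an untranslated part of ptc-1 and that of lig-4 in one of cux-7. In a narrower window, from 500 bp upstream to 100 bp downstream, 18 of the 56 were bound (32.1%), against 9.61% of all genes, with exo-1, lig-4 and mrt-2 lost.

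**Figure D4:**
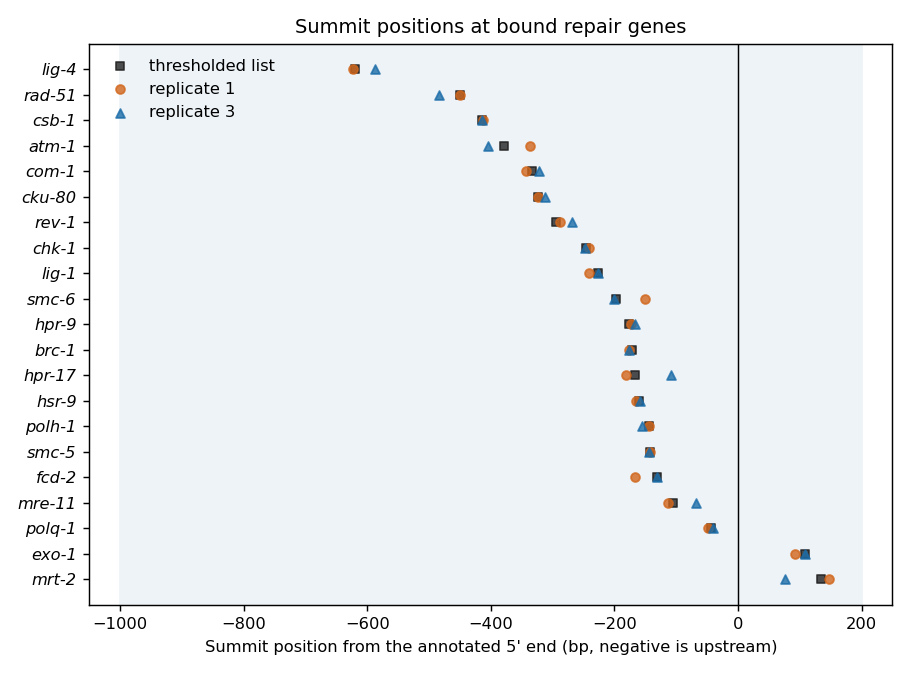
Position of the strongest summit from the annotated 5′ end (x axis, bp, negative is upstream) at each bound repair gene (y axis), in the thresholded list and in both replicates; the shaded band is the promoter window. Summits of the 3 lists lie close together, and 2 genes, exo-1 and mrt-2, have them downstream.

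Summits at repair genes were poorer in A and T than the sequence around them. Within 50 bp of the summit, A and T made up 53.0% ± 7.76 (SD, n = 21 summits), against 67.5% ± 7.22 in the flanks 150 to 200 bp away. The summit was lower than its own flanks at 18 of the 21, and polq-1, hpr-17 and fcd-2 were the exceptions. The lowest value was 34.7% at brc-1 and the highest 70.3% at polq-1. Over all 1891 promoter summits the mean was 53.9%, with 65.2% in the flanks, and only 15.9% of those summits were higher than their flanks. A summit lower than its flanks was thus the usual case over all promoter summits as well. The genome as a whole has 64.6%.

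**Figure D5:**
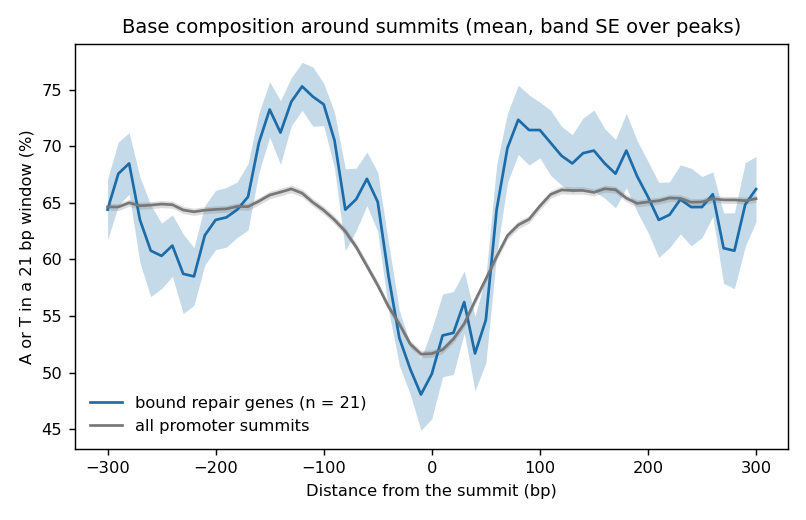
Percent of A or T in 21 bp windows (y axis) by distance from the summit in bp (x axis), as the mean over the 21 bound repair genes and over all promoter summits, with bands of 1 SE over summits. Both lines are low at the summit, with 49.9% for repair genes and 51.7% for all promoter summits, while 200 bp to the left they stand at 63.5% and 64.4%.

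Short words of A and T were found near these summits at shares no higher than in upstream windows of all genes. On either strand, AATT was present within 100 bp at 17 of the 21 summits (81%), against 80.6% of all promoter summits and 92.8% of windows of the same length centred 238 bp upstream of every gene. Within 50 bp it was present at 10 of the 21 (47.6%), against 51.3% and 76.7%. Within 100 bp, AAATTT, which holds AATT, was present at 7 (33.3%), against 27.7% and 43.6%, and TTTTTTTT at 5 (23.8%), against 15.0% and 24.0%. The E2F-like words were also counted within 100 bp. GCGCGAAA was found at fcd-2 alone (4.76%), against 3.23% and 0.811%, and GGCGGGAA at none of the 21, against 1.53% and 0.751%. The word GCGC was chosen after the sequences had been seen. It was present within 50 bp of 17 of the 21 summits (81%), against 49.8% of all promoter summits and 11.5% of the upstream windows. The 4 without it were hsr-9, lig-4, hpr-17 and rev-1. The 6 windows printed above all hold it, but they are among the 17 and were shown to display that word.

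A stretch of 22 identical bases was shared by the summits of chk-1 and fcd-2. Between the 210 pairs of member windows of 201 bp, the next longest shared stretch had 15 bases and the median pair shared 9. The stretch lay at chrV:3759700-3759721, with its centre 4 bp from the chk-1 summit, and at chrIV:15025605-15025626, 37 bp from the fcd-2 summit. The genome held 6 copies. Those at chk-1 and fcd-2 lie near a summit because the stretch was found there, and of the other 4 copies 1 lay within 100 bp of a thresholded summit.

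By chromosome, 9 of 19 repair genes on III were bound, 4 of 8 on II, 3 of 7 on V, 2 of 7 on IV, 2 of 14 on I and the single one on X. Over all genes the shares were 18.3% on III, 12.3% on II, 8.13% on V, 11.8% on IV, 18.2% on I and 8.71% on X. Chromosomes III and I thus had nearly the same share over all genes, while the counts at repair genes were 9 of 19 and 2 of 14; this difference was not tested.

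Other genes that work with the repair machinery were read from a further list of 69 symbols, of which 67 were found. A promoter peak was present at 17 of the 67 (25.4%), against 12.3% of all protein-coding genes, and their median signal was 206, against 164 over all bound genes. The strongest were cdk-7 (597), a kinase gene of TFIIH, pcn-1 (538), the PCNA sliding clamp gene, and rfc-4 (515), the gene of a clamp loader subunit, whose summit was also in reach of the translation factor gene eef-1A.1. They were followed by rpa-2 (500), the gene of a subunit of replication protein A, ruvb-2 (479), a helicase gene of chromatin remodellers, and tim-1 (308), a gene of the replication fork. The remaining 11 had signals from 89.9 to 280, the highest of them at rad-54.L, whose product works with RAD-51.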

How the data were processed

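Peak lists in narrowPeak format were used as the authors deposited them, in ce11 coordinates, the sequence of WBcel235. Per the deposited file notes, the replicate lists were made from single-replicate alignments with a control and the pooled list from pooled alignments. The thresholded list was derived from these 3 by irreproducible discovery rate. The sources used here do not give the peak caller. The signal value of a region is the authors' measure of enrichment in the deposited lists and was not rescaled. The deposited −log10 q-values were not used for calls. Genes came from Ensembl release 115, with the gene's outermost 5′ end, and synonyms from the RefSeq table. A summit is the region start plus the summit column, and where a window held several the strongest was taken. Ranks are by signal within a list.

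The members and lists were chosen with earlier results of these data known. The text names every bound member, the 8 unbound members of highest pooled signal, members with no region in any list and members with a thresholded summit within 1500 bp; genes beyond these were named with their values in view. No test was run: with 1 group, counts and values are set beside those of all 19973 protein-coding genes, which are not replicates. Runs of genes, GCGC, shared stretches and him-14 were added after the values were seen. Printed windows are off chromosome I, touch no annotated exon and share no 20 bases with that chromosome. The code for the calls was checked on summits placed at known offsets, which tests the window rule and not the binding. Python 3.11.15, pandas 2.3.3 and numpy 2.4.6 were used.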

Additional observations from a re-analysis of the deposited data

How the results depend on the processing

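The count of bound repair genes, 21 of 56, moved by more than 1.5 times under a single alternative, peaks with signal above the median of the list, which left 13 (23.2%, against 7.43% of all genes). Without replicate 3, the strongest regions of replicate 1 gave 18, with polq-1, rev-1 and mre-11 lost; without replicate 1 the count was 21, with mrt-2 and rev-1 lost and xpa-1 and xpf-1 gained. The narrower window gave 18 and the nearest 5′ end alone 15. The strongest pooled regions, weaker summits within 200 bp of a peak dropped, 5′ ends of any transcript, names matched through the RefSeq table and him-14 counted for msh-4 all gave 21. Some of these settings could not lower the count. Each bound repair gene had the same rank in the pooled list as in the thresholded list. The 5′ ends of any transcript can only add windows, and him-14 was not bound. Of the 21, 8 were bound under all 8 settings tried gene by gene, namely hsr-9, brc-1, cku-80, smc-5, rad-51, smc-6, chk-1 and fcd-2, and com-1 and lig-1 failed only on the higher signal. Among those settings, the strongest pooled regions and the 5′ ends of any transcript could not remove a gene. An alternative added after the data were seen, a place among the strongest regions of each replicate, gave 17. Regions in both replicate lists, found for 33 genes, fell to 31 with replicate summits within 100 bp and to 25 in the narrower window. The median offset was −177 bp in replicate 1 and −176 bp in replicate 3. The mean A and T share stayed between 51.2% (25 bp on either side) and 54.2% (replicate 1 summits). Read depth was not given, so a gene without a region may have been missed.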
